A study of Mus musculus with 18 samples.

Results

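The 54 genes described here encode enzymes of the urea cycle and of amino acid breakdown. They were chosen as a fixed list of symbols for their role in the pathway, with earlier results of these data known. All 54 were found among the 28442 genes of the deposited table. Bulk poly-A RNA was sequenced from Alb-R26Met mice, a liver cancer model, in 12 advanced tumors and in 6 non-tumoral livers, which carry the same transgene. In these mice a conditional mouse-human chimeric Met transgene at the Rosa26 locus is freed of its stop cassette by Cre under the Alb promoter, so that MET rises slightly in cells that have used this promoter. The animals were F1 C57:129Sv males. The livers came from mice without tumors, aged 52 to 71 weeks, and the tumors from mice aged 49 to 72 weeks. Tumors 11 and 12 were taken from 1 mouse, so that 17 mice gave the 18 samples. Sample names carry a tag, E19 (2 livers and 7 tumors) or E20 (4 livers and 5 tumors), whose meaning the sources do not give.

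Amino acid breakdown in the liver releases nitrogen as ammonia or passes it to glutamate and aspartate by transamination. The urea cycle joins ammonia, bicarbonate and aspartate nitrogen into urea, the form in which mammals excrete nitrogen. Its enzymes are a defining product of hepatocytes and are highest in periportal cells, which receive blood from the portal vein. Pericentral hepatocytes, next to the central vein, instead fix remaining ammonia as glutamine through Glul and hold most Oat. Carbon skeletons of the amino acids feed gluconeogenesis, ketone bodies, the folate and methionine cycles and the synthesis of NAD.

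Levels are given as scaled TPM, that is, the authors' TPM (an abundance per transcript length and per library), deposited as whole numbers and here adjusted for composition by TMM scaling. TPM is per transcript length, so levels can be compared between genes. A fold change is the difference of group means of log2(scaled TPM + 1), tumors minus livers, with its standard error. The p-values are from limma over 11708 genes, adjusted by Benjamini-Hochberg, and a gene was called at an adjusted p under 0.05. The column totals ran from 835144 to 907513 and no read counts were used. The study states a nominal sequencing depth for all samples, but the reads behind each value are unknown. In tumor 2 a single gene, Siglece, took 82.9% of the total, against 17.9% to 29.5% in the livers and 21.5% to 53.4% in the other tumors. Its genes above 0 numbered 8718, against 11508 to 13819 in the other tumors, and 1 deposited TPM there stands for 5.14 scaled TPM. Low values of tumor 2 are therefore coarse.

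Each branch of amino acid catabolism held at least 1 gene that was lower in tumors. Of the 54 genes, 34 were called lower in tumors and 0 higher, where 9.28% of all genes tested were called lower and 9.77% higher. The median log2 fold change of the 54 was -0.99, against -0.06 over all genes. Of the called genes 21 fell at least 2-fold, a size that 4.05% of all genes reached, and the log2 fold change was negative for 53 of the 54. Glud1, glutamate dehydrogenase, was the exception. For 10 genes every tumor lay below every liver (0.982% of all genes), and for 0 every tumor lay above (2.18% of all genes). These 10 were Cps1, Asl, Gls2, Hal, Hpd, Hgd, Fah, Cbs, Mat1a and Prodh. Without tumors 2 and 10, both of which stand apart, 41 were called lower and 0 higher. The calls over all genes rose as well, to 1455 lower and 1639 higher of 11633, from 1086 lower and 1144 higher of 11708. The tags divide the libraries into smaller sets, in which 22 genes were called lower within E19 (6.1% of all genes there) and 13 within E20 (1.11%). The median log2 fold change of the 54 was -1.38 within E19 and -0.79 within E20, and 52 genes were negative in both. In whole tissue, fewer hepatocytes and less RNA per hepatocyte cannot be told apart.

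**Figure D1:**
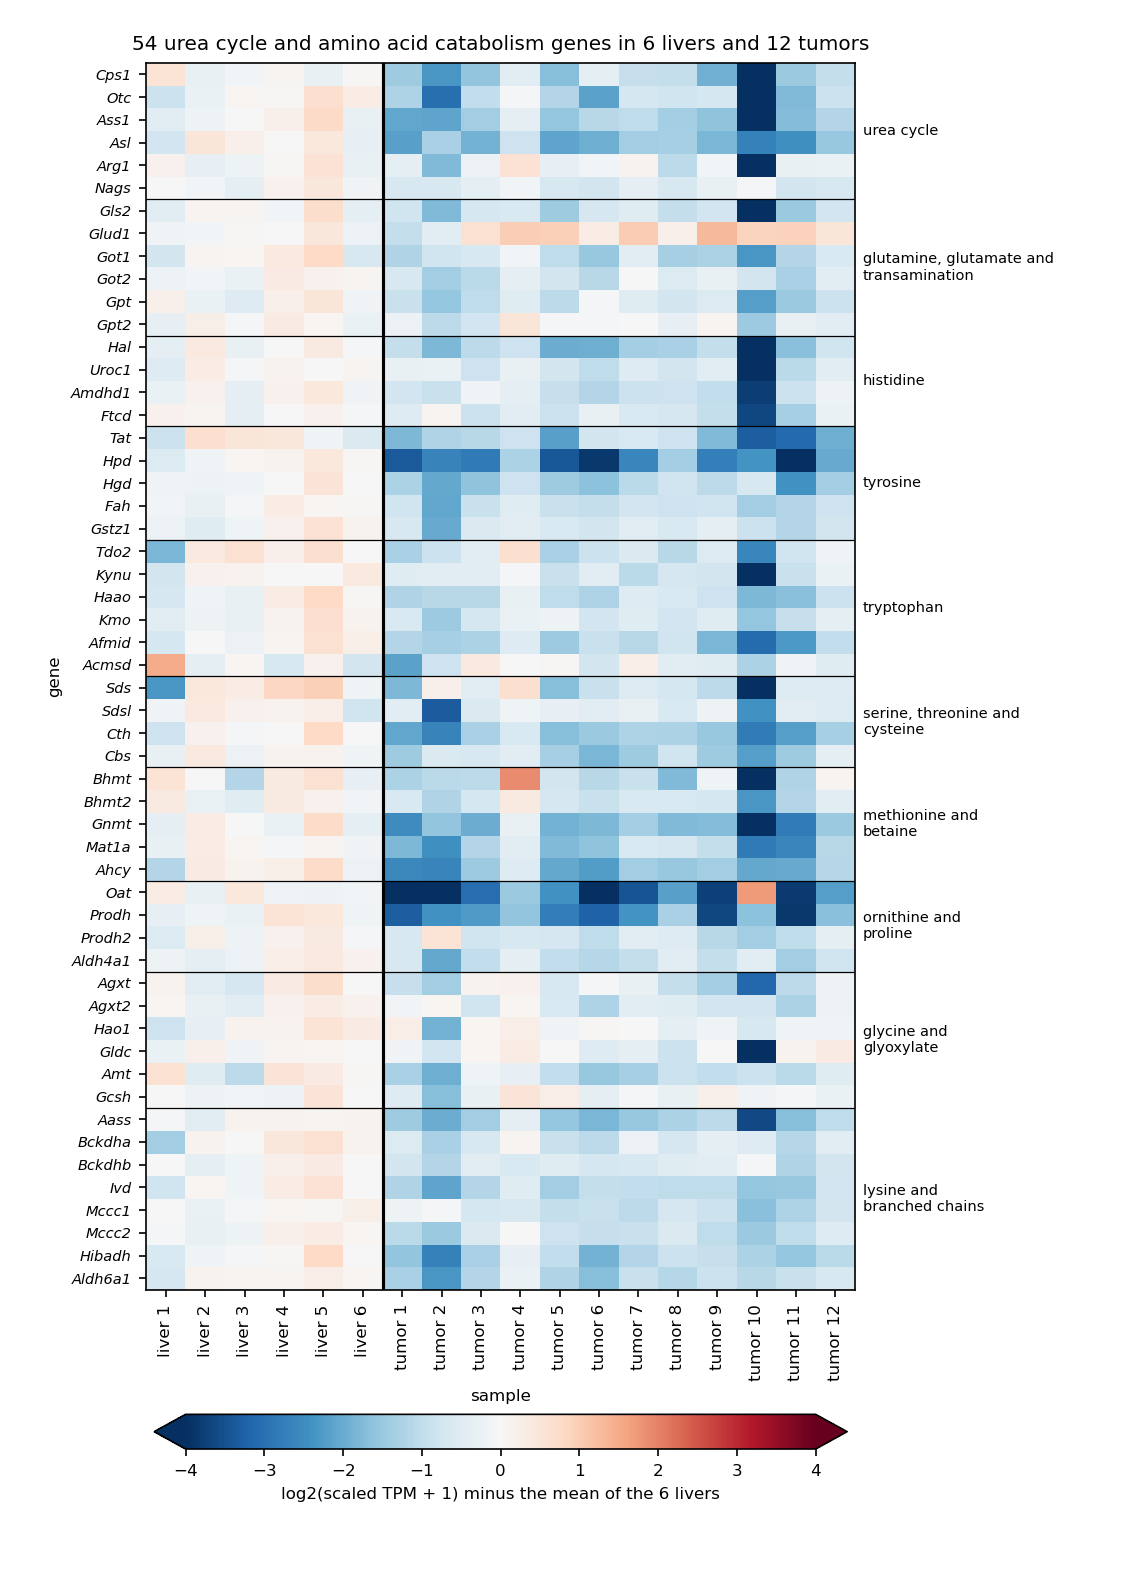
Heat map of the 54 genes (lines, grouped by pathway) in 6 livers and 12 tumors (columns), as log2(scaled TPM + 1) minus the mean of the 6 livers, with blue for lower and red for higher values. Most tumor cells of the map are blue, tumor 4 is the palest with 16 genes below all livers, tumor 10 is the darkest with 46, and Glud1 is red in most tumors.

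Upstream sequences are shown for 3 genes to which the results below return: Hal, which was near 0 in tumor 10, Oat, which was above every liver in the same tumor, and Hpd, the tyrosine enzyme with the largest fall. Each is the 200 bases before the RefSeq start (GRCm38.p6), 5′ to 3′ on the gene's own strand. Capitals mark matches on either strand to 4 short motifs, of which no match overlaps another. The TATA box, where the basal machinery binds upstream of some genes, was searched as TATAAA. The GC box, an element of housekeeping promoters that Sp1 recognises, was searched as GGGCGG. The element of the hepatocyte factors of the C/EBP family was searched as TTGCNNAA. The box named after its own letters was searched as CCAAT.
Hal, chr10:93488568-93488767, plus strand: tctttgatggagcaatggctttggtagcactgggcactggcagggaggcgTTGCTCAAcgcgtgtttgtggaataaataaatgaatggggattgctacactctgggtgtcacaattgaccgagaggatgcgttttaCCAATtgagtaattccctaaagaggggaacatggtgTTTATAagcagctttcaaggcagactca
Oat, chr7:132576399-132576598, minus strand: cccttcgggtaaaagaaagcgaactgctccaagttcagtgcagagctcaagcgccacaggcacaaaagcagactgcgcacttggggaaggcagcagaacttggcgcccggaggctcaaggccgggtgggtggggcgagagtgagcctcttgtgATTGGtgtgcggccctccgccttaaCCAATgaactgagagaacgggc
Hpd, chr5:123182724-123182923, minus strand: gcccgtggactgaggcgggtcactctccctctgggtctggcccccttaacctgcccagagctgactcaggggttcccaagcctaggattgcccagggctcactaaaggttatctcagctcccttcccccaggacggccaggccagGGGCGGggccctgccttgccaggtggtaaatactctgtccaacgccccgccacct

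The Hal window holds a C/EBP element at -150 and a CCAAT box at -64, counted from the start. Its match to TATAAA, beginning at -28, lies on the opposite strand and reads TTTATA on the gene's own strand. The Oat window holds CCAAT boxes at -47 (on the opposite strand) and -22, and the Hpd window a GC box at -55. Among 27025 RefSeq promoters of the same length, 10.56% hold the TATA box, 30.02% the CCAAT box, 31.31% the GC box and 7.47% the C/EBP element. Of the 44 genes of the list with a promoter entry, 5 hold the TATA box, 22 the CCAAT box, 18 the GC box and 4 the C/EBP element. A match is a string of letters and not a measured binding site.

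In the urea cycle, 4 of 6 genes were lower in tumors (Otc, Ass1, Asl and Nags), while Cps1 and Arg1 did not pass the test. The 6 genes summed to between 3187 and 4794 scaled TPM in the livers and to between 108 and 3050 in the tumors, so the sums did not overlap. Asl, argininosuccinate lyase (Entrez 109900, chromosome 5, 130011258 to 130024381), lay between 173 and 409 scaled TPM in livers (median 314) and between 44.4 and 166 in tumors (median 81.0). Every tumor was below every liver, and the log2 fold change was -1.79 ± 0.25 (SE, adjusted p = 3.26e-05). Cps1, carbamoyl phosphate synthetase, which starts the cycle (Entrez 227231, chromosome 1, 67122426 to 67231267), lay between 986 and 1792 in livers (median 1199) and between 2.61 and 937 in tumors (median 446). These groups did not overlap either, yet the log2 fold change of -1.88 ± 0.79 had an adjusted p of 0.105. Tumor 10 set the spread, and without it the value was -1.29 with an adjusted p of 0.00158.

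Ass1, argininosuccinate synthase (Entrez 11898, chromosome 2), joins citrulline and aspartate. It lay between 1060 and 2452 scaled TPM in livers (median 1345) and between 15.7 and 1134 in tumors (median 519), with 11 of 12 tumors below all livers. Tumor 4 alone reached the liver range. The log2 fold change was -1.83 ± 0.58 (adjusted p = 0.0300). The call was lost on leaving out liver 2, 3, 4 or 5, with adjusted p-values of 0.0530, 0.0572, 0.0628 and 0.0719. Otc, ornithine transcarbamylase, ranged from 73.2 to 213 in livers (median 139) and from 6.97 to 125 in tumors (median 62.2), and 8 tumors were below all livers. It fell by 1.46 on the log2 scale (SE 0.44, adjusted p = 0.0228), with adjusted p-values of 0.0605 without liver 5 and 0.0555 without liver 6. Nags makes the N-acetylglutamate that activates Cps1. It spanned 24.6 to 44.7 in livers and 19 to 30.5 in tumors (log2 fold change -0.49, adjusted p = 0.0227, and 0.0634 without liver 4 or 0.0697 without liver 5).

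Arg1, the arginase that releases urea, was not called. It lay between 379 and 705 scaled TPM in livers (median 450) and between 7.84 and 700 in tumors (median 390), and the groups overlapped apart from 5 tumors below all livers. The log2 fold change was -0.80 ± 0.62 with an adjusted p of 0.417, and -0.35 without tumor 10. The interval of the difference, -2.10 to 0.50, holds both no change and a 4-fold fall, so these data do not fix its size.

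**Figure D2:**
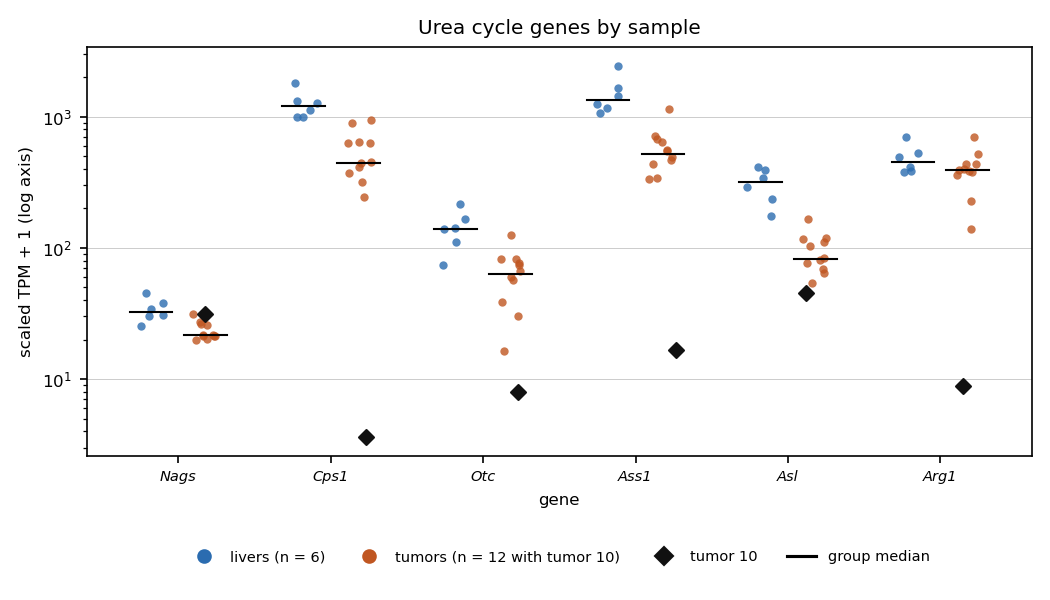
Scaled TPM + 1 (log axis) of the 6 urea cycle genes in each of 6 livers (blue) and 12 tumors (orange, tumor 10 as a black diamond), with the median of each group as a line. Cps1 and Asl do not overlap between the groups, Arg1 does, and tumor 10 is far below the other tumors in Cps1, Ass1 and Arg1 but not in Nags.

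Genes that move nitrogen between glutamine, glutamate and keto acids were split. Got1, Got2 and Gpt were lower in tumors, Gls2, Glud1 and Gpt2 did not pass the test. Got1, the cytosolic aspartate aminotransferase, lay between 48.3 and 144 scaled TPM in livers (median 87.6) and between 15.7 and 76.3 in tumors (median 37.9), with 8 tumors below all livers (log2 fold change -1.04 ± 0.27, adjusted p = 0.0104). Its mitochondrial partner Got2 was the more abundant, at 426 to 652 in livers (median 515) and 195 to 523 in tumors (median 319). It had 11 tumors below all livers and a log2 fold change of -0.72 ± 0.20 (adjusted p = 0.0161, and 0.0509 without liver 4). Gpt, the cytosolic alanine aminotransferase, ranged from 95.4 to 191 in livers (median 140) and from 28.7 to 131 in tumors (median 74.0). It was lower in 9 tumors than in any liver (log2 fold change -0.94 ± 0.25, adjusted p = 0.0109). The mitochondrial Gpt2 overlapped, at 161 to 252 in livers and 73.1 to 279 in tumors (log2 fold change -0.34, adjusted p = 0.345).

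Gls2, the liver glutaminase (Entrez 216456, chromosome 10, 128194635 to 128210004), supplies ammonia to Cps1. It lay between 65.9 and 146 scaled TPM in livers (median 90.02) and between 0 and 63.7 in tumors (median 51.8), so that every tumor was below every liver. It was listed at 0 in tumor 10. Its log2 fold change was -1.41 ± 0.62 (adjusted p = 0.121), and -0.95 ± 0.21 without tumor 10 (adjusted p = 0.00304).

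Glud1 was the only one of the 54 with a positive log2 fold change. This enzyme releases ammonia from glutamate and can run in reverse. It lay between 187 and 304 scaled TPM in livers (median 212) and between 114 and 540 in tumors (median 376), with 8 tumors above all livers and 2 below. The log2 fold change was 0.53 ± 0.27 (adjusted p = 0.195, and 0.0445 without tumor 1). It also moved with the tag. The 7 E19 tumors spanned 338 to 540 and the 5 E20 tumors 114 to 305, and these sets did not overlap. With condition in the model, E20 minus E19 was -0.82 ± 0.19 on the log2 scale (adjusted p = 0.00537). Within E19 the tumor minus liver value was 0.73 (adjusted p = 0.0518) and within E20 it was 0.03 (adjusted p = 0.968). The difference between these 2 values did not pass its own test.

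Histidine breakdown runs from Hal through Uroc1 and Amdhd1 to Ftcd, which hands a one-carbon unit to folate. Of these 4 genes only Hal was called. Hal, histidine ammonia-lyase (Entrez 15109, chromosome 10, 93488768 to 93516761), lay between 69.6 and 120 scaled TPM in livers (median 88.3) and between 0.871 and 51.8 in tumors (median 35.7). Every tumor was below every liver and the log2 fold change was -1.69 ± 0.49 (adjusted p = 0.0196). The other 3 had log2 fold changes of -1.03 (Uroc1), -0.98 (Amdhd1) and -0.86 (Ftcd), with adjusted p-values of 0.230, 0.0648 and 0.108. Each was lowest in tumor 10. Without that tumor, all 4 passed, at -1.33 for Hal, -0.60 for Uroc1, -0.72 for Amdhd1 and -0.61 for Ftcd.

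All 5 genes of tyrosine breakdown were called lower in tumors, and in 3 of them the groups did not overlap. The summed level of the 5 was 1564 to 2652 scaled TPM in livers and 357 to 1193 in tumors. Hpd, the dioxygenase that makes homogentisate (Entrez 15445, chromosome 5, 123171807 to 123182723), lay between 568 and 1094 in livers (median 859) and between 30.4 and 339 in tumors (median 126). Tumors 4 and 8 were the highest of the tumors and still below every liver. The log2 fold change was -2.77 ± 0.38 (adjusted p = 2.85e-05), a fall of 6.82-fold. Its call held within both tags, at -3.13 within E19 and -2.52 within E20.

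Tat, the aminotransferase that starts the branch, spanned 398 to 1129 scaled TPM in livers (median 811) and 71.4 to 470 in tumors (median 259), with 8 tumors below all livers (log2 fold change -1.61 ± 0.38, adjusted p = 0.00485). Hgd opens the ring of homogentisate (Entrez 15233, chromosome 16, 37579742 to 37632026). It spanned 168 to 279 in livers (median 184) and 35.5 to 123 in tumors (median 76.9), without overlap (log2 fold change -1.35 ± 0.23, adjusted p = 0.000254). Fah, which cleaves fumarylacetoacetate in the last step (Entrez 14085, chromosome 7, 84585159 to 84605942), spanned 217 to 329 in livers (median 265) and 61.7 to 191 in tumors (median 145). Its groups did not overlap (log2 fold change -0.99 ± 0.19, adjusted p = 0.000980). Gstz1, the step between them, had a log2 fold change of -0.77 (adjusted p = 0.0143). In the order of the chain the log2 fold changes were -1.61 (Tat), -2.77 (Hpd), -1.35 (Hgd), -0.77 (Gstz1) and -0.99 (Fah). They had no steady order along the chain, and differences between genes were not tested.

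In tryptophan breakdown 3 of 6 genes were called lower. These were Afmid, Kmo and Haao, steps of the kynurenine chain that leads towards NAD. Afmid, which yields kynurenine, lay between 40.3 and 101 scaled TPM in livers (median 68.97) and between 6.97 and 46.2 in tumors (median 27.9), and 11 tumors were below all livers (log2 fold change -1.39 ± 0.30, adjusted p = 0.00222). Haao lay between 146 and 405 in livers (median 225) and between 67.04 and 191 in tumors (median 113), with 9 tumors below all livers (log2 fold change -1.02 ± 0.23, adjusted p = 0.00325). Kmo ranged from 41.7 to 93.8 in livers (median 56.9) and from 19.2 to 49.8 in tumors (median 36.6). Its log2 fold change was -0.72 ± 0.21 (adjusted p = 0.0192, and 0.0629 without liver 5).

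Tdo2, the dioxygenase at the entry of the chain, overlapped widely between the groups, at 98.1 to 547 scaled TPM in livers and 55.7 to 543 in tumors. Its log2 fold change was -0.83 (adjusted p = 0.140), and -1.19 with an adjusted p of 0.0149 without liver 1, the lowest liver. Kynu had -0.87 (adjusted p = 0.136, and 0.0232 without tumor 10). Acmsd, which diverts the chain away from NAD, was low in all samples and had -0.48 (adjusted p = 0.364).

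Of the 4 genes of serine, threonine and cysteine breakdown, Cth and Cbs were called and Sds and Sdsl were not. Cbs and Cth together carry homocysteine sulfur into cysteine. Cbs (Entrez 12411, chromosome 17, 31612623 to 31637233) spanned 95.9 to 155 scaled TPM in livers (median 116) and 24.4 to 88.2 in tumors (median 44.6), with no overlap (log2 fold change -1.16 ± 0.24, adjusted p = 0.00186). Cth spanned 57.8 to 179 in livers (median 102) and 13.9 to 67.2 in tumors (median 36.1), with 11 tumors below all livers (log2 fold change -1.68 ± 0.28, adjusted p = 0.000254). Sds, serine dehydratase, was the most variable of the 54 among the livers on the log2 scale (SD 1.21), at 17.6 in liver 1 and up to 180 in liver 5. Its tumors ran from 0 to 144 and the log2 fold change of -1.16 ± 0.73 had an adjusted p of 0.304. Sdsl was low throughout, at most 12.2 in livers and 8.03 in tumors.

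The methionine cycle makes the methyl donor S-adenosylmethionine through Mat1a, spends it in part through Gnmt, and clears the product through Ahcy. All 3 were lower in tumors. Gnmt lay between 777 and 1692 scaled TPM in livers (median 930) and between 51.4 and 832 in tumors (median 296), with 11 tumors below all livers (log2 fold change -1.96 ± 0.38, adjusted p = 0.00103). Ahcy lay between 215 and 806 in livers (median 554) and between 77.1 and 338 in tumors (median 145), with 10 tumors below all livers (log2 fold change -1.75 ± 0.30, adjusted p = 0.000292). Mat1a (Entrez 11720, chromosome 14, 41105012 to 41124428) lay between 440 and 671 in livers (median 545) and between 75.7 and 392 in tumors (median 210). Its groups did not overlap (log2 fold change -1.50 ± 0.32, adjusted p = 0.00206).

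Bhmt and Bhmt2 return homocysteine to methionine with betaine or S-methylmethionine. Bhmt2 was called (log2 fold change -0.80, adjusted p = 0.0356), but its call was lost on leaving out any 1 of 6 libraries (livers 1, 4, 5 and 6 and tumors 6 and 11), where the adjusted p ran from 0.05003 to 0.0922. Bhmt was not called (log2 fold change -1.07 ± 0.64, adjusted p = 0.278). Among the 54 it had the widest range of scaled TPM in tumors, from 22.6 scaled TPM in tumor 10 to 3883 in tumor 4, which exceeded the highest liver at 1625.

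Ornithine and proline breakdown held the largest fall and the most exceptional sample. All 4 genes were called lower. Oat, ornithine aminotransferase, which links ornithine to proline and glutamate (Entrez 18242, chromosome 7, 132557475 to 132576398), lay between 83.5 and 137 scaled TPM in livers (median 93.6). In 11 tumors it lay between 1.45 and 36.1, below all livers, and in tumor 10 it was 336, above all livers. The log2 fold change was -2.86 ± 0.66 over all samples (adjusted p = 0.00432) and -3.27 ± 0.43 without tumor 10 (adjusted p = 1.57e-05).

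Prodh, proline dehydrogenase (Entrez 19125, chromosome 16, 18071726 to 18089283), lay between 68.1 and 126 scaled TPM in livers (median 76.4) and between 5.07 and 34.4 in tumors (median 15.5). No tumor reached a liver, and the log2 fold change was -2.51 ± 0.34 (adjusted p = 2.30e-05), a fall of 5.68-fold. Aldh4a1, the next enzyme of proline breakdown, spanned 178 to 311 in livers (median 234) and 56.5 to 183 in tumors (median 121). It had 11 tumors below all livers (log2 fold change -0.92 ± 0.22, adjusted p = 0.00451). Prodh2, which acts on hydroxyproline, was called at -0.67 (adjusted p = 0.0362) but lost the call on leaving out any 1 of livers 2 to 6 or of tumors 3, 5, 6, 9, 10 and 11, with adjusted p-values from 0.0501 to 0.0887.

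Glycine and glyoxylate genes had the smallest median log2 fold change of the groups (-0.58), with 1 of 6 called. That gene was Amt, a subunit of the glycine cleavage system, at 10.4 to 35.1 scaled TPM in livers (median 26.4) and 5.14 to 20.1 in tumors (median 11.1), with 5 tumors below all livers (log2 fold change -0.98 ± 0.26, adjusted p = 0.0111). Its partners Gldc and Gcsh overlapped, with log2 fold changes of -0.60 and -0.23 and adjusted p-values of 0.534 and 0.559. Gldc spanned 36.6 to 51.6 in livers and 23.9 to 56.0 in 11 tumors, and was listed at 0 in tumor 10. Hao1, which makes glyoxylate, had -0.24 (adjusted p = 0.600). Agxt and Agxt2, aminotransferases that remove glyoxylate, had -0.81 (adjusted p = 0.138) and -0.55 (adjusted p = 0.0646, and 0.0245 without tumor 2 or 0.0372 without tumor 4).

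For lysine and the branched chains 7 of 8 genes were called lower. Aass, which starts lysine breakdown, spanned 46.9 to 71.1 scaled TPM in livers (median 69.8) and 4.35 to 50.2 in tumors (median 22.4), with 11 tumors below all livers (log2 fold change -1.55 ± 0.30, adjusted p = 0.00106). Hibadh, of valine breakdown, spanned 68.8 to 182 in livers (median 103) and 15.4 to 83.3 in tumors (median 44.6), with 11 tumors below all livers (log2 fold change -1.30 ± 0.26, adjusted p = 0.00133). Ivd, of leucine breakdown, spanned 39.5 to 104 in livers (median 72.6) and 15.4 to 50.2 in tumors (median 32.2). It had 10 tumors below all livers (log2 fold change -1.18 ± 0.22, adjusted p = 0.000582). The valine and thymine enzyme Aldh6a1 had -1.12, the leucine carboxylase subunits Mccc1 and Mccc2 -0.80 and -0.87, and Bckdhb, a subunit of the branched-chain dehydrogenase, -0.64, all called. Bckdha, the other subunit, was not called (-0.65, adjusted p = 0.0774), and passed without liver 1 (adjusted p = 0.00224) or tumor 4 (adjusted p = 0.0450).

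**Figure D3:**
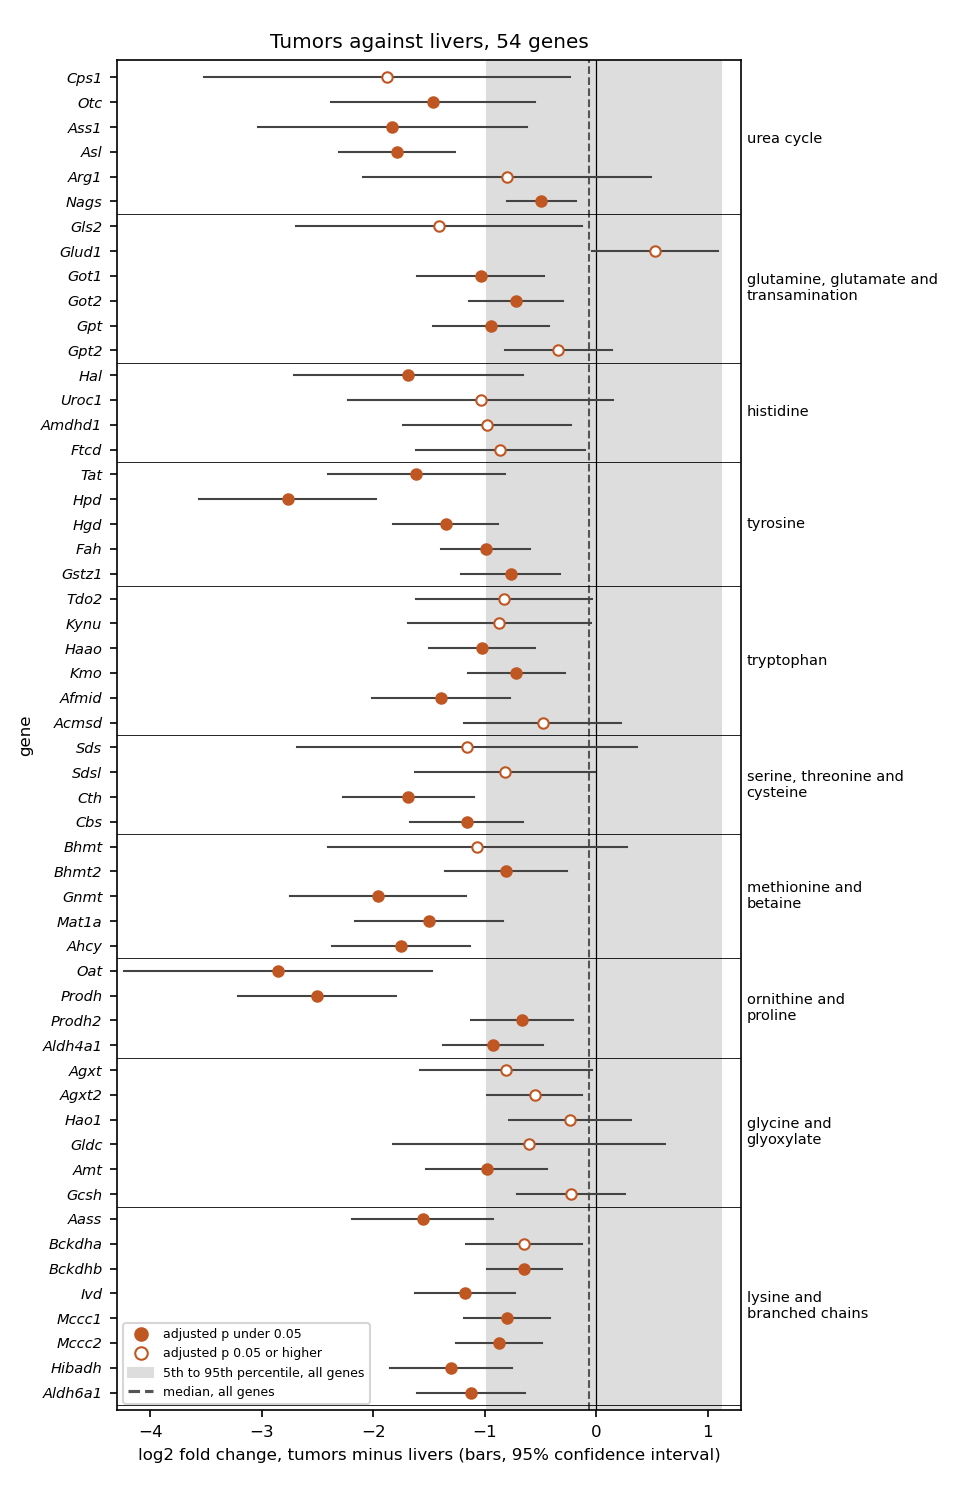
Log2 fold change (tumors minus livers) of the 54 genes by pathway, with 95% confidence intervals as bars and filled points for an adjusted p under 0.05. The grey band is the 5th to 95th percentile of all 11708 genes (-0.98 to 1.12) and the dashed line their median (-0.06). Oat, Hpd and Prodh lie farthest to the left, and Glud1 is the only point to the right of 0.

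Tumors differed in how far the program had receded. Counting, in each tumor, the genes below all 6 livers gave 16 of 54 in tumor 4, 30 in tumor 12, 31 in tumor 7, 36 to 44 in the other 8 tumors apart from tumor 10, and 46 in tumor 10. Over all genes tested, 12.1% to 24.7% lay below all livers in the tumors other than tumor 2, and 44.2% did in tumor 2. Tumor 4, with 29.6% of the 54 genes against 17.4% of all genes, was the closest to the livers. It had the highest tumor value for 30 of the 54, and Glud1, Gpt2, Bhmt and Gldc were above all livers there. Relative to the liver mean, the median log2 difference over the 54 genes was -0.34 in tumor 4, -1.48 in tumor 2, -2.21 in tumor 10 and between -0.63 and -1.21 in the other tumors. Tumors 11 and 12, from the same mouse, did not resemble each other more than other pairs. They carry different tags, E19 and E20, and Siglece took 53.4% of the total in tumor 11 and 24.4% in tumor 12. Their median absolute log2 difference over the 54 genes was 0.65, rank 40 of the 66 pairs, of which the others ran from 0.25 to 1.82.

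The spread of log2 values was a median SD of 0.36 over the 54 genes in livers and 0.63 in tumors, and 45 genes were wider in tumors. Without tumor 10 the tumor median was 0.48 and 41 genes were wider. The limma test of absolute deviations called 0 of all 11708 genes (371 at an unadjusted p under 0.05, 2 of them among the 54). By these deviations, 11 of the 54 and 3595 of all 11708 genes were narrower in tumors. Most of all genes were thus wider in tumors too, and the share by SD was not computed for them. Without scaling the test called 45 genes wider in tumors, 0 of them among the 54. In simulated data it recovered 0 of 200 genes whose spread had been tripled, so such a difference could have been missed here.

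Tumor 10 had an expression pattern of its own. It held the lowest tumor value for 31 of the 54 genes, among them Cps1, Ass1, Arg1, Hal, Uroc1, Gls2 and Sds, which are highest in periportal hepatocytes of a normal liver. Cps1 was 2.61 scaled TPM there against 242 to 937 in the other 11 tumors. Ass1 was 15.7 against 334 to 1134, and Arg1 7.84 against 139 to 700. Hal (0.871), Uroc1 (1.74) and Kynu (0.871) were near the lowest value the table can hold, and Gls2, Sds and Gldc were listed at 0. In the other tumors none of these 6 was below 13.2.

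Oat was the one gene of the 54 far above the other tumors in tumor 10, at 336 against 1.45 to 36.1, and it was above all livers as well. Bckdhb (34.0 against at most 26.4), Hgd (123 against at most 112) and Nags (30.5 against at most 30.1) were the highest of the tumors by small margins, and Glud1, at 414, lay within the other tumors (114 to 540). Glul, glutamine synthetase, which is outside the list of 54 and is expressed beside Oat in pericentral hepatocytes, was 5350 scaled TPM in tumor 10, against 193 to 422 in livers and 18.2 to 250.2 in the other tumors. The 6 pericentral markers Cyp2e1, Cyp1a2, Slc1a2, Rhbg, Lgr5 and Axin2 summed to 2918 there, within the liver range of 997 to 2969 and above the other tumors at 49.4 to 896. Slc1a2 was 397, Rhbg 60.1, Axin2 30.5 and Lgr5 7.84, each above all livers. The 4 periportal markers summed to 52.2, below the livers (263 to 1981) and the other tumors (420 to 988). Of these, Cyp2f2 was listed at 0 and Pck1 was 1.74, whereas Cdh1, at 39.2, was above all livers as it was in every tumor. General hepatocyte markers (Alb, Ttr, Apoa1, Trf and Apob) summed to 42448 in tumor 10, within the liver range of 38497 to 50782 but below the other tumors at 51294 to 83729. Of these, Alb (19959) and Apob (141) were below every liver. The stellate cell and fibroblast markers given below had their highest sum in tumor 10 (128, against at most 114 in the other tumors) and the endothelial markers their lowest (13.1, against at least 26.6). This account of tumor 10 was drawn up after its values were seen and is a description of 1 sample.

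**Figure D4:**
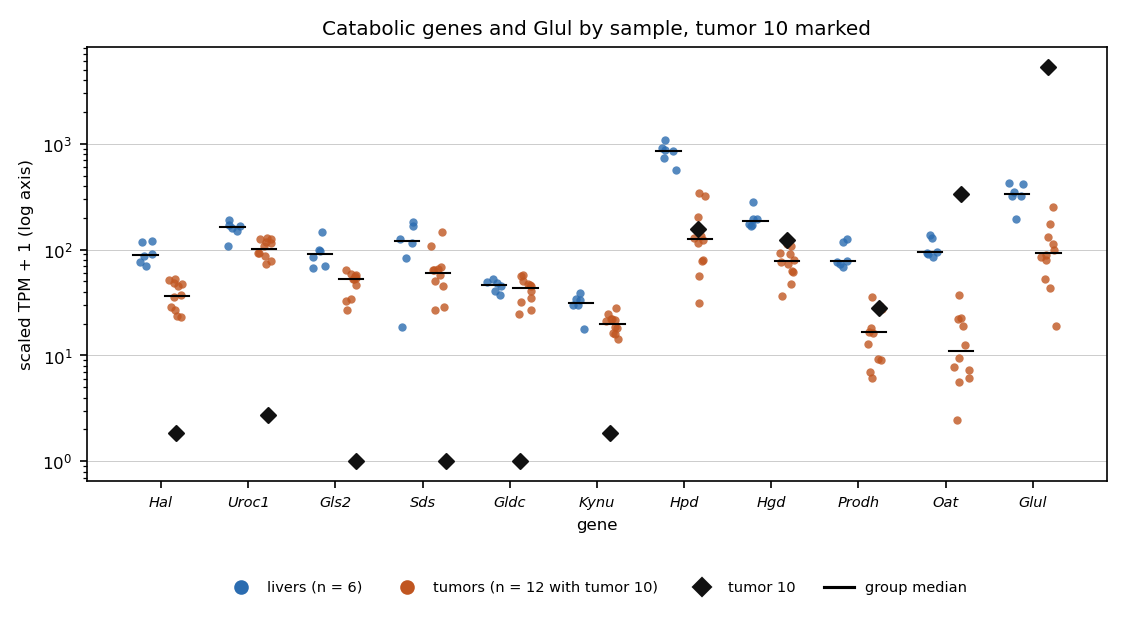
Scaled TPM + 1 (log axis) of 10 catabolic genes and Glul in each of 6 livers (blue) and 12 tumors (orange, tumor 10 as a black diamond), with the median of each group as a line. Tumor 10 is at or near the floor for Hal, Uroc1, Gls2, Sds, Gldc and Kynu, lies among the tumors for Hpd and Prodh, and is the highest sample for Oat (336) and Glul (5350).

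Leaving out tumor 10 raised the number of genes called lower from 34 to 39, where 9.16% of all genes were. Cps1, Gls2, Uroc1, Amdhd1, Ftcd and Kynu were gained, with log2 fold changes from -1.29 to -0.59 and adjusted p-values from 0.00158 to 0.0233, and Prodh2 was lost (adjusted p = 0.0501). The median of the 54 then was -0.82.

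Isozymes and close paralogs, not all of which share a substrate, were compared next. The log2 ratio of 7 such pairs was compared between tumors and livers by a two-sided exact permutation test (18564 assignments of the samples), with p-values adjusted over the 7 pairs, and 3 passed. The ratio of Mat1a to Mat2a, the liver against the ubiquitous methionine adenosyltransferase, was 4.32 ± 0.44 in livers (SD, n = 6) and 2.61 ± 1.26 in tumors (SD, n = 12; exact adjusted p = 0.0112). Mat2a was not called (log2 fold change 0.21, adjusted p = 0.633).

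The ratio of Prodh to Prodh2, which act on proline and hydroxyproline, was -0.13 ± 0.27 in livers (SD, n = 6) and -1.97 ± 0.88 in tumors (SD, n = 12; exact adjusted p = 0.00226). Gpt against Gpt2 changed least of the pairs that passed, from -0.56 ± 0.42 (SD, n = 6) to -1.17 ± 0.33 (SD, n = 12; exact adjusted p = 0.0112). For Got1 against Got2, Bhmt against Bhmt2, Sds against Sdsl and Tdo2 against Ido2 the differences were -0.32, -0.26, -0.34 and 0.60, with exact adjusted p-values of 0.419, 0.665, 0.665 and 0.0968.

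Genes of the same pathways outside the list of 54 were compared as well. Of 72 such genes tested, 33 were lower and 6 higher in tumors, against 9.28% and 9.77% of all genes, so that the count of higher genes is near that of all genes. Without scaling 16 of 73 were lower and 6 higher. For lysine and the branched chains, 12 of 17 were lower and 0 higher, with Dhtkd1, Gcdh and Acadsb at log2 fold changes of -1.89, -1.42 and -1.23. The tryptophan and NAD list had 4 of 8 lower, led by Aadat (-1.63, every tumor below every liver), Ido2 (-1.42) and Aldh8a1 (-1.15). In the tetrahydrobiopterin list 2 of 4 were lower, and these were Qdpr (-0.96) and Gch1 (-0.72). In the sulfur list 1 of 7 was, Suox, sulfite oxidase (-1.83). Of the choline and one-carbon genes 6 of 16 were lower, led by Dmgdh (-1.48) and Sardh (-1.28). The nitrogen supply list had 4 of 11 lower, led by Car5a, the mitochondrial carbonic anhydrase (-1.62), and 2 higher. The serine and glycine list had 4 of 9 lower, led by Srr, serine racemase (-0.99), and 3 higher.

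The 6 that were higher all belong to synthesis or to one-carbon metabolism. Phgdh, the first enzyme of serine synthesis, was at most 0.790 scaled TPM in livers and lay between 4.01 and 81.0 in tumors (log2 fold change 3.88 ± 0.40, adjusted p = 5.56e-07). Psat1, the second, was at most 1.46 in livers and lay between 5.09 and 36.7 in tumors (3.36 ± 0.36, adjusted p = 1.28e-06). Every tumor was above every liver for both in scaled TPM, but Psat1 in tumor 2 was 1 deposited TPM, against 2 in liver 1. Psph, the last step, had 9 tumors above all livers (1.84 ± 0.31, adjusted p = 0.000294). Asns, asparagine synthetase, had a log2 fold change of 2.23 (adjusted p = 0.00359) with 9 tumors above all livers. Aldh18a1, which makes proline and ornithine precursors from glutamate, had 2.07 (adjusted p = 0.000172) with 11 above. Mthfd1l, of mitochondrial one-carbon metabolism, had 1.36 (adjusted p = 9.56e-05) with all 12 above in scaled TPM. In deposited TPM it was 1 in tumor 2 and 2 in tumor 4, against 1 or 2 in livers. Since liver values of Phgdh, Psat1 and Aldh18a1 were near 0, and those of Mthfd1l at most 1.89, their fold changes depend on the pseudocount. Beside them, Prodh, Cbs, Cth and Amt of the breakdown lists were called lower over the same samples, whereas Sds was not called. Cbs and Cth also carry sulfur into cysteine.

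**Figure D5:**
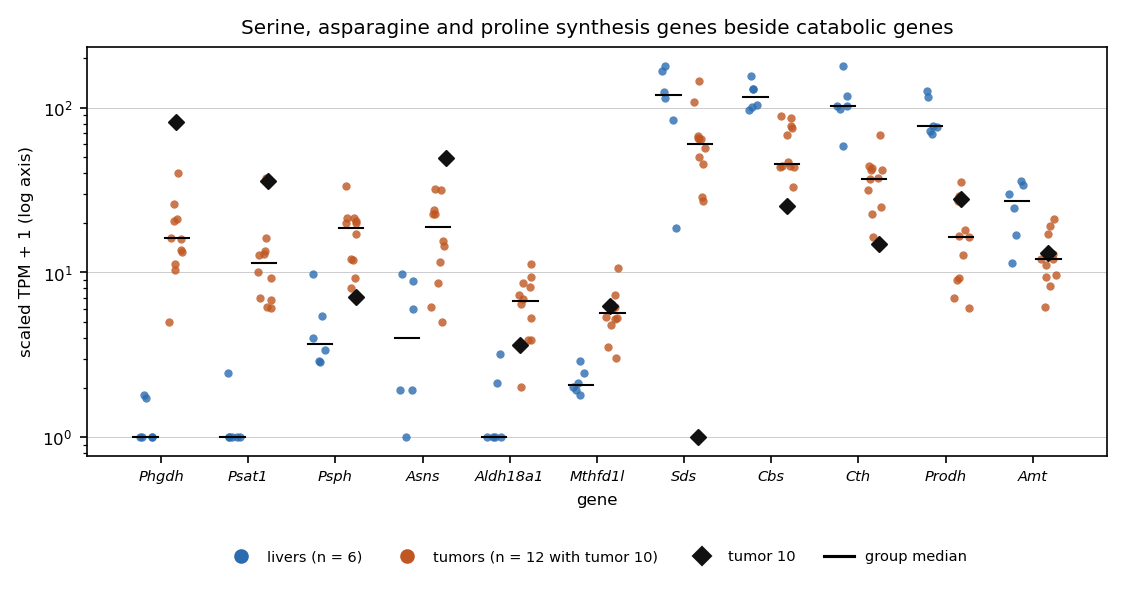
Scaled TPM + 1 (log axis) of 6 genes of serine, asparagine, proline and one-carbon synthesis and 5 genes of the breakdown lists in each of 6 livers (blue) and 12 tumors (orange, tumor 10 as a black diamond), with the median of each group as a line. Phgdh, Psat1 and Mthfd1l lie above all livers in every tumor, and Cbs and Prodh lie below all livers in every tumor. Psat1 in tumor 2 and Mthfd1l in tumors 2 and 4 do so only after scaling.

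Of 12 transcription factors and receptors that act on these genes in the liver, 4 had an unadjusted limma p under 0.05. Among all 11708 genes 3643 did, so the share is near that of all genes. Only Klf15, which induces amino acid breakdown in fasting, was called, where 9.28% of all genes were called lower. Klf15 spanned 49.8 to 112 scaled TPM in livers (median 96.1) and 16.5 to 68.2 in tumors (median 37.7), with 10 tumors below all livers (log2 fold change -1.18 ± 0.24, adjusted p = 0.00152). Hnf4a, at 29.0 to 56.7 in livers and 31.3 to 53.7 in tumors, had a log2 fold change of -0.10 ± 0.16 (adjusted p = 0.735). Cebpa (-0.69), Gcgr, the glucagon receptor (-0.62), and Atf4 (0.10) had adjusted p-values of 0.149, 0.0621 and 0.790. Without tumor 2 Cebpa (-0.82, adjusted p = 0.0404) and Gcgr (-0.74, adjusted p = 0.00236) were called, as they were within E19 (adjusted p = 0.0151 and 0.0375) but not within E20 (0.916 and 0.734).

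Markers of other cells moved with the groups as well. Of 5 hepatocyte markers 0 were lower and 2 higher (Apoa1 and Trf, the latter at 4295 to 7061 scaled TPM in livers and 9395 to 18310 in tumors), and their sum was 38497 to 50782 in livers and 42448 to 83729 in tumors. Without scaling neither was called (adjusted p = 0.232 for Apoa1 and 0.15 for Trf). Of 4 periportal markers Cyp2f2 was lower and Cdh1 higher (sums 263 to 1981 and 52.2 to 988). Hsd17b13 and Pck1 were not called, although Hsd17b13 was above all livers in 10 tumors. Pck1 was 29.3 scaled TPM in liver 1 and 457 to 1291 in the other livers. Of 5 pericentral markers tested Cyp2e1, Cyp1a2 and Axin2 were lower (sums of all 6 markers 997 to 2969 and 49.4 to 2918). Of 5 stellate cell and fibroblast markers, Col1a1 and Col3a1 were higher and Lrat and Des lower, with sums of 22.7 to 39.2 and 23.9 to 128. Of 5 endothelial markers 1 was higher, Pecam1 (sums 19.8 to 63.7 and 13.1 to 206). The sum of 206 was that of tumor 2, where Lyve1 alone was 143.9 scaled TPM, from 28 deposited TPM. Of 5 Kupffer cell markers Clec4f and Marco were lower (sums 32.8 to 99.4 and 2.53 to 63.3). Marco was 23.4 scaled TPM in liver 1, 0.945 to 2.37 in the other livers and 0 to 3.16 in tumors. For the 4 leukocyte markers, of which 1 could be tested and 0 were called, sums were 2.01 to 4.74 and 1.003 to 11.3. Among 4 cycling cell markers 3 were higher (sums 0 to 1.89 and 5.02 to 22.9). Of the 4 bile duct markers, Krt19, Krt7 and Epcam were at or near 0 in all samples and Sox9 was not called (sums 3.16 to 10.3 and 3.48 to 15.4). Leaving out each sample in turn gave 18 fits, of which 3 kept the call of Axin2 (adjusted p up to 0.109), 10 that of Clec4f (up to 0.101), 13 that of Des (up to 0.0719), 16 that of Cdk1, a cycling cell marker (up to 0.0742) and 17 that of Lrat (up to 0.0548). Marco passed the filter on low values in only 12 of these fits and was called in each. Without scaling Des was not called (adjusted p = 0.118). The part of these changes in the fall of the catabolic genes was not tested.

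The tags were compared with condition in the model. Of all genes, 13.3% were higher and 7.81% lower in E20. Of the 54, 0 were higher and 3 lower: Glud1, given above, Gcsh (-0.55, adjusted p = 0.0450) and Nags (-0.35, adjusted p = 0.0372). Without tumor 10 only 1 of the 54 was called, and without scaling 0 were, where 1150 genes were higher and 4 lower in E20. The difference between tumors and livers did not depend detectably on the tag, since the interaction called 0 of 11708 genes in limma (348 at an unadjusted p under 0.05, 0 of them among the 54). In simulated data that test recovered 51 of 100 genes changed by 2 on the log2 scale and 5 of 100 changed by 1. Differences of 2 could thus have been missed, and smaller ones more often.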

How the data were processed

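Bulk poly-A RNA of 6 livers and 12 tumors was sequenced (paired ends). The authors checked reads with FastQC, aligned them to GRCm38 (mm10), and quantified them as TPM with Salmon 1.10.2. Described as counts, the deposited values are whole numbers with near-equal totals, and 882 of 900 compared equal the study's TPM after rounding (tolerance 0.5). They were therefore treated as a rounded score, namely TPM as the authors computed it, not as counts, and no count model or counting interval was used. The groups follow the sample titles.

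Values were scaled by a trimmed mean of M values (30% and 5% trims) and tested as log2(value + 1) with limma 3.58.1 (R 4.3.3, trend), in genes of at least 1 scaled TPM in at least 6 samples. The tests ran on all 18 samples. In simulated data the tumor against liver test recovered 64 of 100 genes changed by 1 and 95 of 100 changed by 2 on the log2 scale. By the study's list of mice the samples are from 17 animals, and tumors 11 and 12 count as separate samples.

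The 54 genes and the other lists were chosen with earlier results of these data known. Named in full were, in each pathway, the 3 called genes with the largest fold change and all genes without overlap between the groups, and in each other list at most 3 called genes. Glul was added after its values were seen. Some genes of these lists are not reported here. Positions and promoters are RefSeq's (GRCm38.p6), and 44 of 54 genes matched a promoter. Same-numbered livers and tumors are different mice and were not paired. Alternatives were other scalings, filters, pseudocounts, covariates, sample weights, subsets and leaving out each sample.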

Additional observations from a re-analysis of the deposited data

Results flagged for a closer look

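For 6 of the 54 genes, 1 liver lay far from the other 5, with a gap to its neighbour above Dixon's critical share of the whole range of the 6 livers. For independent genes with normal values the rule would flag about 1 gene in 20, or 2.7 of 54. Neither condition was checked here and the share over all genes was not computed, so 6 cannot be set against 2.7. Liver 5 was the highest liver for Glud1 (gap 0.662 of the range), Hgd (0.763), Gcsh (0.775) and Hibadh (0.65). Liver 1 was the highest for Acmsd (0.763) and the lowest for Aldh6a1 (0.749). Without liver 5 or without liver 1, the calls of Hgd, Hibadh and Aldh6a1 and the lack of a call of Glud1, Gcsh and Acmsd were as with all samples.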

How the results depend on the processing

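With 34 of the 54 genes called lower, the count was 20 without scaling, 22 within E19 and 13 within E20, and leaving out 1 sample gave 28 to 39. The other filters, pseudocounts, scaling and covariates, and the mean of tumors 11 and 12, gave 34 to 36. All genes called, 2230 in all, were 1341 without scaling, 1402 within E19, 405 within E20, 1417 with the replicate number as a block, 1257 in livers and tumors 1 to 6 without it, 4702 with sample quality weights, and 1689 to 3112 on leaving out 1 sample. The weights also called 1 of the 54, Glud1, higher. Leaving scaling out moved the median of all genes by -0.12 on the log2 scale. Without scaling 14 of the 54 lost their call and 0 changed sign. Acmsd, not called, changed sign within E19 (0.0684), and the ratio of Bhmt to Bhmt2, not called, ran from -0.42 to 0.000400 on leaving out 1 sample. The cause of these changes was not tested, although subsets hold fewer samples. Of the 34 calls, 27 held on leaving out any 1 sample.

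For the tags, 3 of the 54 were called, 1 in tumors alone, 0 without scaling and 1 without tumor 10 (2 without tumor 2). Over all genes the tag split was 1555 higher and 914 lower, and 1150 higher and 4 lower without scaling. The 3 enzyme ratios that passed were 3 to 4 on leaving out 1 sample, and the spread test and the interaction stayed at 0 of the 54 under each alternative run. Same-numbered livers and tumors share only a number: their deviations correlated at a mean r of 0.18 (-0.10 to 0.42, 6 pairs), 3 of 6 livers correlated best with their own number, and the block gave 30 genes of the 54 lower against 27 without it. Fits without tumors 2 and 10 together, and the tag fits without either, were added after the data were seen. The reads behind each value are unknown, and values of 0 are limited by rounding.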
